A study of Mus musculus with 6 samples.

Results

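The 81 genes described here encode the protein components of the cytosolic ribosome and their closest named paralogs. They were taken by name, as every gene whose symbol is Rpl or Rps with a number and an optional short suffix, Rplp0 to Rplp2, or Rpsa, leaving out the Rps6k kinases, and they are 81 of the 11754 genes in the deposited gene table. By their symbols 32 belong to the small (40S) subunit, including the paralog Rps27l, and 49 to the large (60S) subunit, including the paralogs Rpl22l1, Rpl7l1 and Rpl6l. Fau, Rpl36al, Rps27rt and Rack1 also encode ribosome proteins or their paralogs but fall outside the name rule, and their values are given apart.

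The cells were of the mouse line 2H11 (strain C3H/HeJ), labelled as endothelial and given a source of axillary lymph node or vascular epithelium. BMP4-treated cells (3 samples) were starved and then kept with BMP4, a bone morphogenetic protein, for 48 h. Untreated cells (3 samples) went through the same starvation and time with no BMP4. Poly(A) RNA was made into strand-specific libraries and sequenced as read pairs, and the labels do not say whether samples of one group came from separate cultures, so the p-values below measure the spread between these samples, which may be technical.

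A ribosome is built in the nucleolus from ribosomal RNA and one copy of most ribosomal proteins, and free copies that find no place in a particle are degraded. Cells regulate the set largely as a group. In vertebrates most of these transcripts begin with a C followed by a run of pyrimidines, the 5′ terminal oligopyrimidine (TOP) motif, through which the mTORC1 kinase and the RNA-binding protein LARP1 set how much of the transcript is translated rather than how much is made. Growth factors, starvation and nutrient stress act on this step, so a steady transcript level does not by itself give the rate at which the proteins are made.

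The first 20 bases of the most abundant listed transcript were read from GENCODE M21 (GRCm38) for 61 members whose deposited transcript matched that annotation. The examples are a pair with a textbook TOP start (Rpl32 and Rps2), the most abundant 40S member (Rps15), and both paralog pairs the results below turn on, and capitals mark the first run of at least 5 C or T that starts within the first 10 bases.
Rpl32 (chr6:115808728-115808747, minus strand): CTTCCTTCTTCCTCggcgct
Rps2 (chr17:24720110-24720129, plus strand): CTTCTTCTTCTTCgggagaa
Rps15 (chr10:80292453-80292472, plus strand): gtaCTTCCTTTTCCgagtaa
Rps27 (chr3:90213632-90213651, minus strand): gCTCCTTTCCggcggtgacg
Rps27l (chr9:66946086-66946105, plus strand): gCCTCTatcccggaagttgc
Rpl7 (chr1:16104643-16104662, minus strand): cccagagctgacgaggtgtc
Rpl7l1 (chr17:46782637-46782656, minus strand): cgcagtagctgaagcaccgg

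Rpl32 and Rps2 carried the run from the annotated first base, Rps27 and Rps27l from the second base, Rps15 a few bases in, and Rpl7 and Rpl7l1 had no such run in this window. Of the 61 members, 3 (4.92%) began with C inside a run of at least 5 pyrimidines, against 2.48% of 8775 tested genes with a matched main transcript. A run starting within the first 10 bases was present in 19 members (31.1%) and in 22.8% of those tested genes. These are annotated starts, not starts measured in these cells, so a window without the run says only that these letters are not at the annotated first bases.

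Levels are given as FPKM, fragment numbers scaled to the length of the transcript and to the number of fragments mapped in the library. The scaling is meant to allow comparison between genes. For a member the sum of its transcripts' FPKM was 0.616 to 6.64 times the gene FPKM, so levels of different members compare only roughly. All 81 members had a mean of at least 1 FPKM and entered the test. Their means ran from 10.5 to 1041.5 FPKM with a median of 159, where the median of all 10932 tested genes was 9.19. The sequencing depth behind the values is not known, since FPKM keep no read counts. In the bulk samples, fewer cells of a type and less RNA per cell cannot be told apart.

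Of the markers by which the label can be checked, 0 of 10 endothelial genes (Pecam1 and Cdh5 among them) are in the listed genes. Every listed gene had a mean of at least 0.50 FPKM in 1 or both groups. Genes absent from the list may have been below such a level or left out for another reason. Endothelial identity was therefore not analysed here. All 8 fibroblast and mesenchymal markers were listed, with a summed level of 1500 to 1511 FPKM in BMP4-treated samples and 2719 to 2770 FPKM in untreated samples, 3 of them higher and 5 lower past the threshold used below. Leukocyte markers were listed for 3 of 8 and summed to 12.1 to 13.7 FPKM with BMP4 and 10.3 to 15.6 FPKM without, and Krt19, the epithelial marker listed of 6, stayed below 1 FPKM in each sample. None of the 6 red cell markers is listed. The part of these shifts in the values of the ribosomal protein genes was not tested.

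Libraries differed in a way the groups do not explain, and the ribosomal protein genes carried that difference together. BMP4 replicate 3 had the highest value of its group in 75 of the 81 members, and untreated replicate 1 the highest of its group in 77. Untreated replicate 1 was the highest of all 6 libraries for 49 members and BMP4 replicate 3 for 26, while untreated replicate 3 was the lowest for 40 and BMP4 replicate 2 for 23. The summed FPKM of all listed genes was also highest in those libraries within each group, 253164, 252329 and 264273 in BMP4 replicates 1 to 3, and 273562, 261775 and 256997 in untreated replicates 1 to 3. Results below are therefore given as deposited, after scaling every library to the same sum, and, where the call differs, without one or both of those high libraries.

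**Figure D1:**
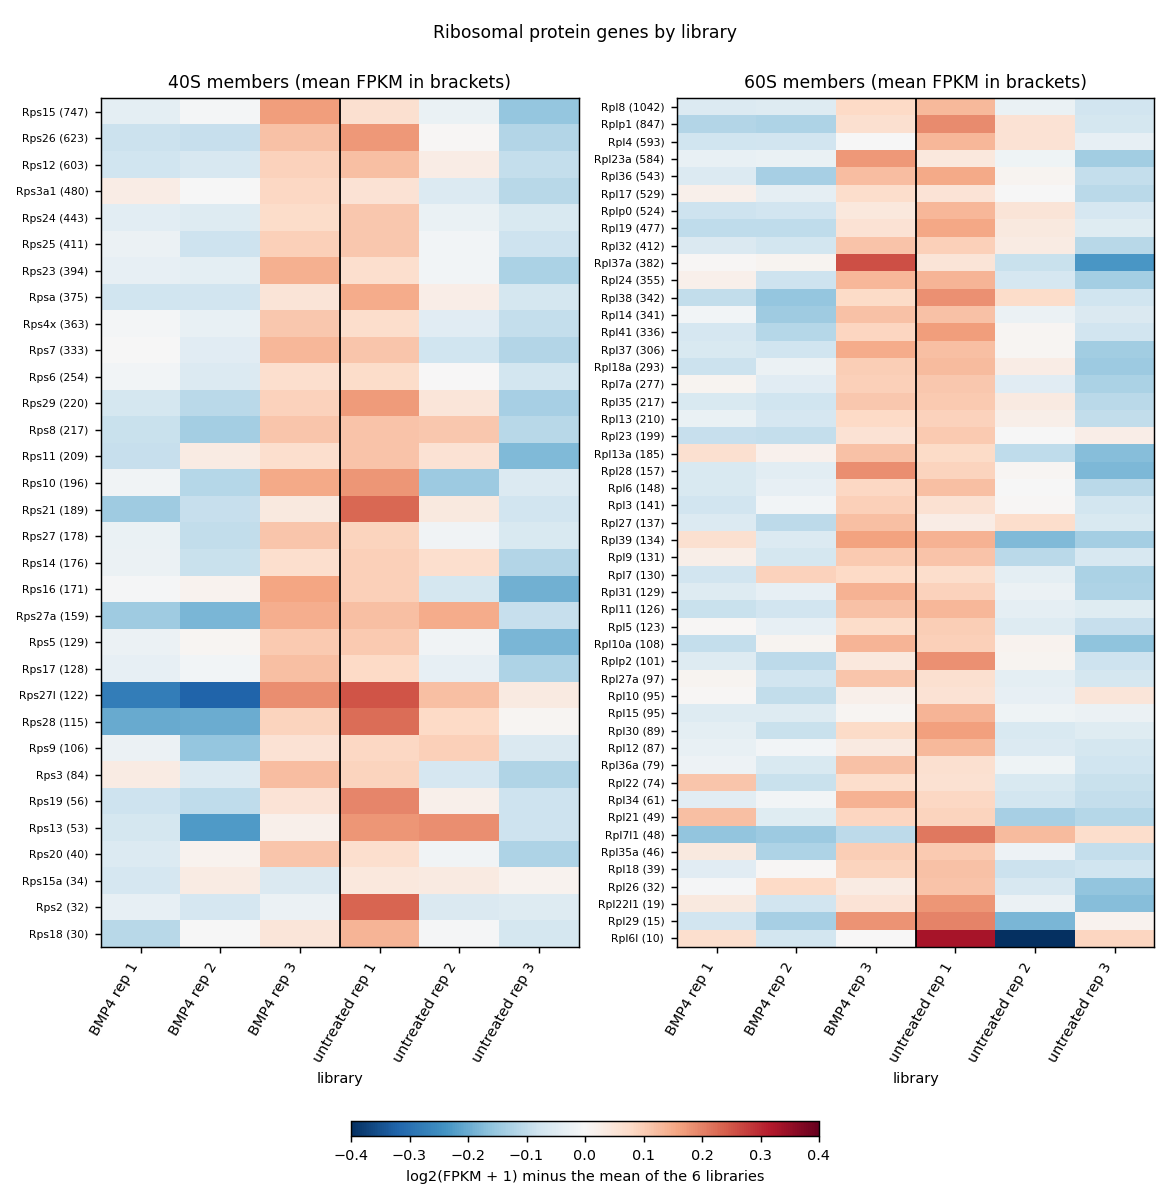
Each row is a ribosomal protein gene, ordered by mean FPKM (in brackets), and each column a library, with BMP4-treated samples left of the line and untreated samples right of it; colour is log2(FPKM + 1) minus the mean of the 6 libraries. BMP4 replicate 3 and untreated replicate 1 are red in nearly all rows, and Rpl7l1 is the member that is blue in all BMP4 samples and red in all untreated samples.

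After 48 h with BMP4, ribosomal protein transcripts stood close to their untreated level as a group, while many other transcripts had moved. Of the 81 members 1, Rpl7l1, fell and 0 rose in limma's moderated test on log2(FPKM + 1) with Benjamini-Hochberg adjustment over all tested genes. The background was 3046 of 10932 tested genes called (27.9%), with 13.6% higher and 14.3% lower. At an unadjusted p under 0.05 the count of members was also 1, where 39.9% of all tested genes passed. The median log2 fold change of the members was -0.0076, against -0.0013 for all tested genes, with 37 members above 0 and 44 below.

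The members' changes were also small. Their median absolute log2 fold change was 0.047, against 0.150 for all tested genes, while the median standard error was 0.0753 for members and 0.0749 for all tested genes. No member reached a 1.25-fold change in either direction, a bound that 78.9% of all tested genes stayed within. For 71 of the 81 members the whole 95% interval of the fold change lay within 1.25-fold (0.32 on the log2 scale), which held for 44.3% of all tested genes. The 10 members whose interval reached beyond it were Rpl37a, Rpl38, Rps21, Rps27a, Rpl39, Rps27l, Rps28, Rps13, Rpl7l1 and Rpl6l. In 0 members did all BMP4 samples lie above all untreated samples (22.4% of all tested genes), and in 1 did they all lie below (23.1%).

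**Figure D2:**
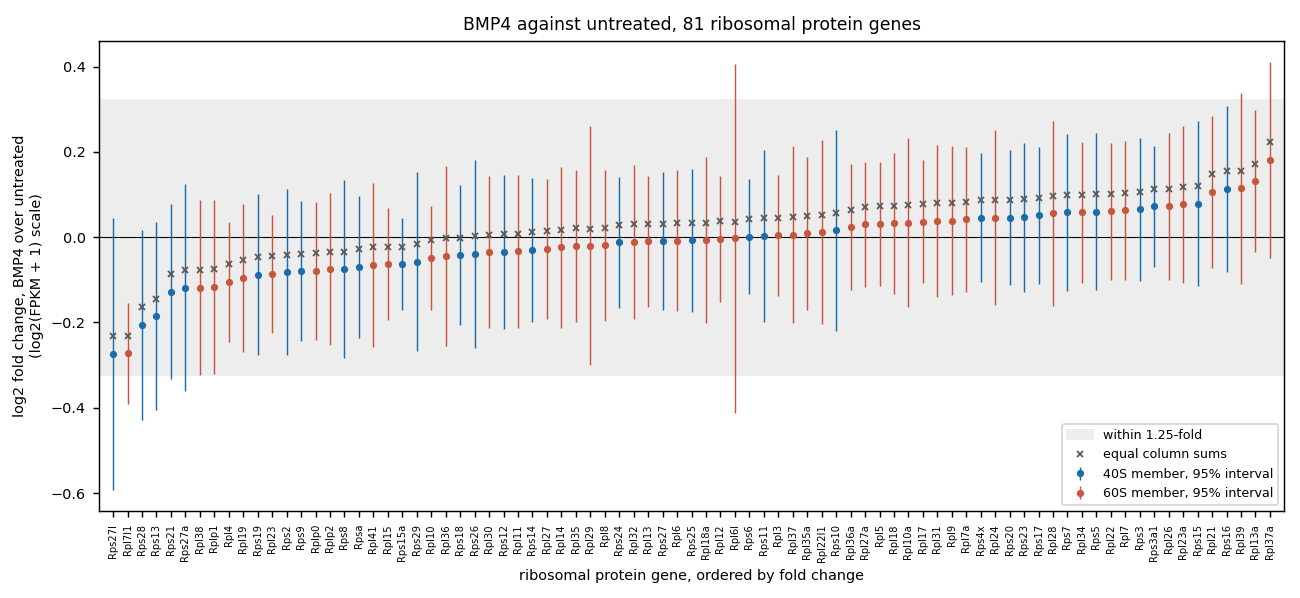
Log2 fold changes (BMP4 over untreated, log2(FPKM + 1) scale) of the 81 ribosomal protein genes in order of size; dots with bars are the deposited values with 95% intervals from limma, blue for 40S and red for 60S, crosses are the values after scaling all libraries to the same sum, and the grey band is 1.25-fold. All dots lie inside the band, between -0.27 and 0.18, and the interval of Rpl7l1 is the one that stays clear of 0.

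**Figure D3:**
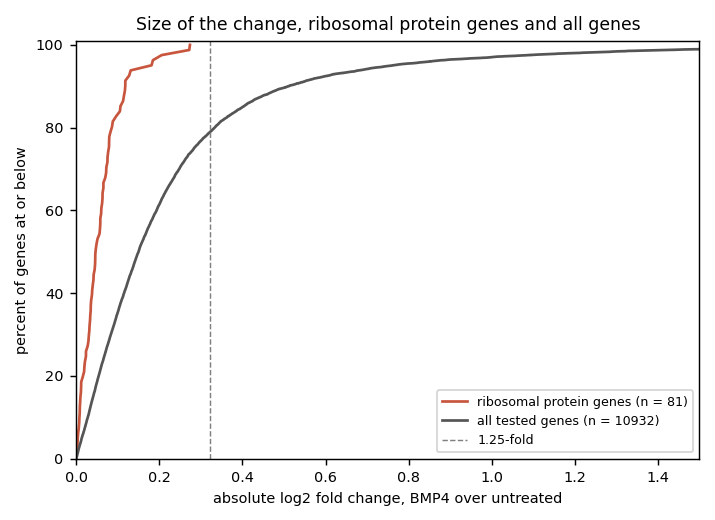
The percent of genes whose absolute log2 fold change (BMP4 over untreated) is at or below the value on the horizontal axis, for the 81 ribosomal protein genes (red) and the 10932 tested genes (grey); the dashed line is 1.25-fold. The red curve reaches 100% before the dashed line, where the grey curve stands at 78.9%.

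The summed level showed the same. The members together made up 7.30%, 7.23% and 7.75% of the FPKM of all listed genes in the BMP4 samples and 7.58%, 7.30% and 6.96% in the untreated samples. These ranges overlap, with means of 7.43% ± 0.282 with BMP4 and 7.28% ± 0.313 without (SD, n = 3 each; exact two-sided permutation test p = 0.6, where 0.1 is the smallest 3 against 3 samples allow). As sums, the BMP4 samples had 18492, 18253 and 20491 FPKM and the untreated samples 20745, 19117 and 17881 FPKM. Leaving out BMP4 replicate 3 or untreated replicate 3 turned the sign of the small difference in share.

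The balance of the subunits was steadier between libraries than the total. The summed FPKM of 40S members divided by that of 60S members was 0.666, 0.671 and 0.672 in BMP4 samples and 0.666, 0.668 and 0.662 in untreated samples. The means were 0.669 ± 0.0032 and 0.666 ± 0.0030 (SD, n = 3 each; exact two-sided permutation test p = 0.2, smallest possible 0.1). The direction of this difference turned without the 3 most abundant members and when geometric means replaced sums. The median log2 fold change was -0.02 over 32 members of the 40S subunit, with 0 called, and -0.0030 over 49 members of the 60S subunit, with Rpl7l1 called. Both medians turned positive, to 0.02 and 0.04, after scaling to the same sum.

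Rpl7l1 is a paralog of Rpl7, and in human cells its protein is found in early precursors of the 60S subunit. The gene (ENSMUSG00000063888.6, chr17:46773907-46782656, minus strand, GRCm38) was at 42.7, 43.1 and 44.4 FPKM in BMP4 samples and at 55.5, 52.3 and 50.2 FPKM in untreated samples. The highest BMP4 sample lay below the lowest untreated sample. It fell by 0.27 on the log2 scale (SE 0.0502, limma adjusted p = 0.00716). The call held in each fit that left out 1 library, with a log2 fold change from -0.31 to -0.23 and an adjusted p from 0.00922 to 0.0356. Its level is that of a single listed transcript, Rpl7l1-201, which was also the only member transcript past the threshold (adjusted p = 0.0307). At the transcript level no member transcript passed without BMP4 replicate 1, BMP4 replicate 2, untreated replicate 1 or untreated replicate 2.

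Rpl7, a 60S protein that binds ribosomal RNA near the 5S particle, was at 123, 139 and 138 FPKM in BMP4 samples and 136, 127 and 119 FPKM in untreated samples. The groups overlapped (log2 fold change 0.06, limma adjusted p = 0.534), and the sign turned to -0.17 when the level was taken as the sum of its transcripts. A test of the difference between Rpl7l1 and Rpl7 was not run.

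Rps27l, a 40S paralog of Rps27 whose human counterpart is a target of p53, had a log2 fold change of the same size as Rpl7l1 but a wide spread. It was at 99.1, 96.1 and 137 FPKM in BMP4 samples and 143, 131 and 123 FPKM in untreated samples. BMP4 replicates 1 and 2 were lower than all untreated samples and BMP4 replicate 3 was not. Its log2 fold change was -0.27 (SE 0.135, limma adjusted p = 0.178). Without BMP4 replicate 3 it was -0.44 with an adjusted p of 0.00828, and without both BMP4 replicate 3 and untreated replicate 1 it was -0.38 with an adjusted p of 0.00597, a joint omission chosen after the values were seen. Over all fits that left out 1 library it ran from -0.44 to -0.18, with a limma adjusted p from 0.00828 to 0.421. Rps27 itself, a zinc-finger protein of the 40S subunit, was at 175, 166 and 192 FPKM with BMP4 and 189, 176 and 171 FPKM without (log2 fold change -0.0094, adjusted p = 0.934), groups that overlapped.

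Rpl36al, an autosomal copy of the X-linked Rpl36a that lies outside the name rule, was at 46.9, 42.2 and 48.6 FPKM in BMP4 samples and 63.3, 58.1 and 52.5 FPKM in untreated samples. The groups did not overlap, and it fell by 0.33 on the log2 scale (SE 0.0822, limma adjusted p = 0.0234). That call was lost without BMP4 replicate 1 (adjusted p = 0.0600), BMP4 replicate 2 (0.0783) or untreated replicate 2 (0.0689). Rpl36a had a log2 fold change of 0.02. Rpl22l1, the paralog of the RNA-binding protein gene Rpl22, was at 19.7, 18.1 and 19.9 FPKM with BMP4 and 21.8, 18.8 and 16.9 FPKM without, and Rpl22 was at 79.4, 69.0 and 77.1 FPKM with BMP4 and 76.6, 70.3 and 69.0 FPKM without. Both pairs of groups overlapped, with log2 fold changes of 0.01 for Rpl22l1 and 0.06 for Rpl22. The tissue-restricted paralogs Rpl3l, Rpl10l and Rpl39l are not in the listed genes and were not analysed here, while Rpl3, Rpl10 and Rpl39 had log2 fold changes of 0.0046, -0.05 and 0.11 and did not pass. Reads of such close paralogs can be split between them in counting, so each separate value is uncertain.

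**Figure D4:**
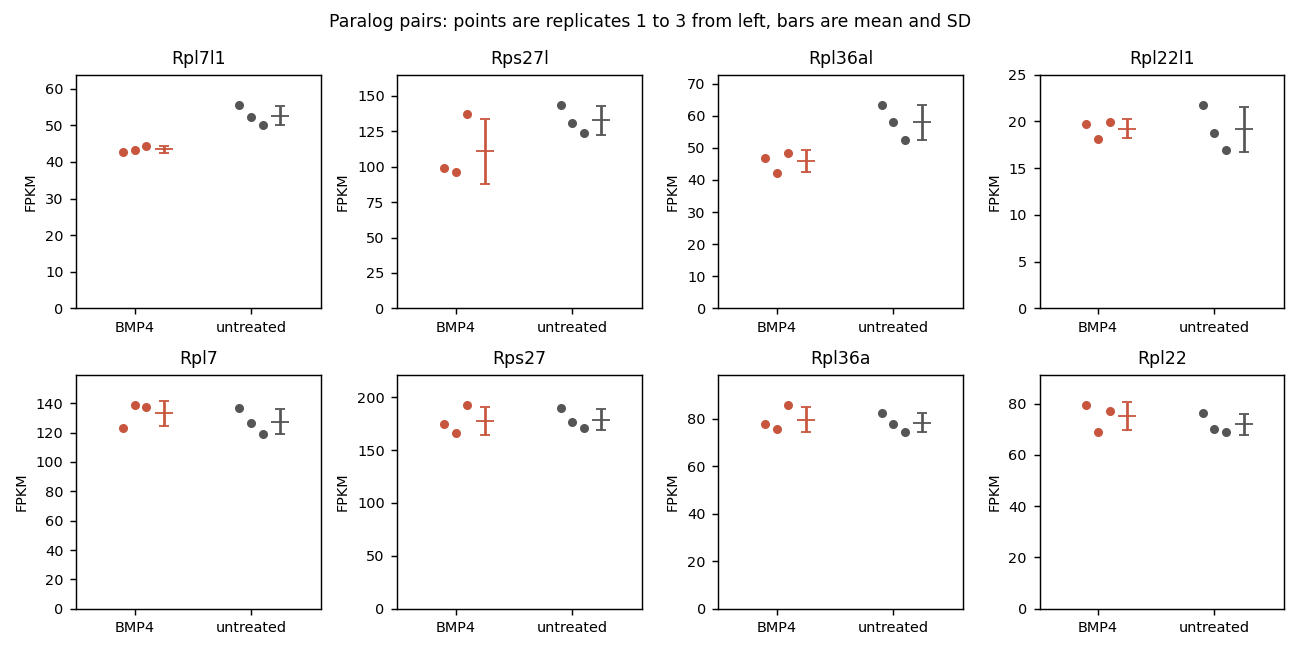
FPKM of 4 paralogs (top) and their parent genes (bottom) in BMP4-treated samples (left, red) and untreated samples (right, grey); points are replicates 1 to 3 from left, and bars are the mean and SD of 3. For Rpl7l1 and Rpl36al all BMP4 points lie below all untreated points, for Rps27l BMP4 replicate 3 at 137 lies among the untreated points, and for the other genes the groups overlap.

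The most abundant member was Rpl8, a 60S protein at the peptidyl transferase centre. It was at 1002, 1003 and 1098 FPKM in BMP4 samples and 1138, 1022 and 987 FPKM in untreated samples, and the groups overlapped (log2 fold change -0.02, SE 0.0752). Rplp1, an acidic protein of the stalk that recruits elongation factors, followed with 779, 776 and 882 FPKM with BMP4 and 963, 879 and 804 FPKM without. Rps15, whose tail reaches the decoding centre, was at 725, 741 and 836 FPKM with BMP4 and 779, 732 and 669 FPKM without. For both the groups overlapped, and the order of the levels, Rpl8 above Rplp1 above Rps15, was the same in each of the 6 libraries by the gene table. By the sum of listed transcripts Rps15, with a mean of 937 FPKM, and Rpl23a, with 880, stood above Rplp1, with 847.

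The stalk base gene Rplp0 and its partner Rplp2 had log2 fold changes of -0.08 and -0.08, and Rplp1 -0.12, and 0 of the 3 passed (adjusted p = 0.431, 0.496 and 0.356 by limma). The 5S particle genes Rpl5 and Rpl11, whose free proteins bind MDM2, were at 124 ± 4.71 and 125 ± 10.4 FPKM with BMP4 and 122 ± 8.60 and 128 ± 9.08 FPKM without (SD, n = 3 each), with log2 fold changes of 0.03 and -0.03. Rps6, the substrate of the S6 kinases, was at 252, 245 and 266 FPKM with BMP4 and 267, 254 and 241 FPKM without, a log2 fold change of 0.0010. All of these groups overlapped.

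At the low end, Rpl6l, a copy of Rpl6, was at 10.9, 9.79 and 10.4 FPKM in BMP4 samples and 13.3, 7.54 and 11.1 FPKM in untreated samples. Rpl29, a 60S protein at the subunit surface, was at 13.7, 13.1 and 16.5 FPKM with BMP4 and 16.7, 12.6 and 14.6 FPKM without. Both sets of groups overlapped, and these members have the widest intervals of the 60S genes in the plot of fold changes, from -0.41 to 0.41 for Rpl6l and from -0.30 to 0.26 for Rpl29.

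Scaling all libraries to the same sum of FPKM moved the median log2 fold change of all tested genes to 0.03 and that of the members to 0.03 as well, with 56 members above 0 and 25 below. Under that scaling 3126 of 10935 genes passed (28.6%; 15.9% higher and 12.6% lower), and among members 3 rose and 1 fell. The 3 that rose were Rps3a1, a 40S protein on the messenger RNA exit side (log2 fold change 0.11, limma adjusted p = 0.0375), Rpl13a, a 60S protein that in human myeloid cells also acts off the ribosome in translational silencing (0.17, adjusted p = 0.0306), and Rpl37a, a small zinc-finger protein of the 60S subunit (0.22, adjusted p = 0.0491). Rpl7l1 fell by 0.23 (adjusted p = 0.00328). In 9 members all BMP4 samples then lay above all untreated samples (25.6% of all tested genes), and in 2, Rpl7l1 and Rpl4, they all lay below (19.8%). The 95% interval lay within 1.25-fold for 75 members (43.4% of all tested genes), the fold change itself for all 81 (78.7%), and 9 had an unadjusted p under 0.05 (40.2%). As deposited, Rpl13a was at 193, 187 and 200.5 FPKM with BMP4 and 195, 172 and 164 FPKM without, groups that overlap through untreated replicate 1, and without that library its adjusted p was 0.0314. Over all fits that left out 1 library its limma adjusted p ran from 0.0314 to 0.446, with log2 fold changes from 0.08 to 0.20.

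The members varied together from library to library, so each was also set against the mean log2(FPKM + 1) of all 81 in its own library. The correlation of a member with the mean of the others over the 6 libraries had a median of 0.875, and it exceeded 0.8 in 58 of 81, against a median of 0.0939 over the other 10851 tested genes, of which 5.43% exceeded 0.8. These are descriptions over 6 libraries that share the difference in summed FPKM given above. Rps15a, a 40S protein, was the member least like the rest (-0.07), followed by Rpl6l and Rpl7l1 (0.35 each), and Rps26 was the most like (0.991).

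Relative to the member mean, the standard error of a member fell to a median of 0.0408, while that of all tested genes rose from 0.0749 to 0.103. In that fit 5 members departed from the mean (background 18.8% of all tested genes, 8.71% higher and 10% lower). The background thus rests on wider errors than the members have. Rpl37a (chr1:72711260-72713809, plus strand) was at 382, 383 and 455 FPKM in BMP4 samples and 394, 358 and 323 FPKM in untreated samples, and relative to the other members it was higher by 0.19 on the log2 scale (SE 0.0397, limma adjusted p = 0.0114). Its raw groups overlap through untreated replicate 1. Rpl13a was also higher (0.14, adjusted p = 0.0310).

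On the low side were Rpl7l1 (-0.26, limma adjusted p = 0.0135), Rps28 (-0.19, adjusted p = 0.0310) and Rplp1 (-0.10, adjusted p = 0.0222). Rps28, a small 40S protein near the messenger RNA exit, was at 99.2, 99.5 and 122 FPKM in BMP4 samples and 134, 121 and 115 FPKM in untreated samples, so BMP4 replicate 3 lies inside the untreated range. Its log2 fold change in the direct comparison was -0.21 (adjusted p = 0.150), and without BMP4 replicate 3 it was -0.30 and passed (adjusted p = 0.0293). Over all fits of that comparison that left out 1 library it ran from -0.30 to -0.15, with a limma adjusted p from 0.0293 to 0.360. Rpl37a passed relative to the mean in each alternative tried. The other 4 lost their call in at least 4 alternatives each, and the count of 5 members was 2 without BMP4 replicate 1, 2 without BMP4 replicate 2, 1 without untreated replicate 2 and 3 without untreated replicate 3. Rpl13a overlaps exons of Gm45713 on its own strand, so part of its reads may be shared. Rps28 overlaps exons of Kank3 on the other strand, as 1 of 12 members with such an overlap. In strand-specific libraries that matters only if the counting ignored the strand.

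Promoter sequence was read for the member that fell and for the member that stood above the rest, beside 1 member that has the core of the ETS family of transcription factors, from RefSeq (GRCm38.p6). Each is the 120 bases just before the annotated start, and capitals mark the motif CCGGAAG.
Rpl7l1 (chr17:46782657-46782776, minus strand): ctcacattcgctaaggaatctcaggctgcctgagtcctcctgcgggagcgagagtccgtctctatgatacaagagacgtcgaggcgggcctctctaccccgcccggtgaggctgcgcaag
Rpl37a (chr1:72711140-72711259, plus strand): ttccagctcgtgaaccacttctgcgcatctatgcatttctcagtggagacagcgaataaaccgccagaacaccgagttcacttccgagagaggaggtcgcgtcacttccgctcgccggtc
Rpl37 (chr15:5116493-5116612, plus strand): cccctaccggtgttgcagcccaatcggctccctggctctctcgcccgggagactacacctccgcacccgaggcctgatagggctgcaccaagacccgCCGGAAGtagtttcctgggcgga

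Windows from 250 bases before to 50 after the start were at hand for 60 members, and they were searched on both strands for 3 motifs, of which the first ends in the 3 letters the second begins with, so that a single stretch can hold both. CCGGAAG was in the windows of 25 of 60 member genes (41.7%), against 21.5% of 8379 tested genes with a window. AAGATGG, part of the motif of the factor YY1, was in 10 (16.7%), against 8.76%, and TATAAA in 7 (11.7%), against 8.02%. A match is a run of letters, not a site shown to be bound in these cells, and neither the Rpl7l1 nor the Rpl37a stretch printed here holds any of the 3.

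Transcript values gave no call beyond Rpl7l1-201. The members had 183 listed transcripts, of which 167 had a mean of at least 1 FPKM, and 38 members had a single listed transcript. At the transcript level 1472 of 17213 passed (8.55%), with 1 member transcript lower (background 4.53%) and 0 higher (4.03%). In the test of shares, the FPKM of a transcript against the rest of its gene, 26 of 11574 passed (0.225%) and 0 of 129 member transcripts, the smallest adjusted p being 0.688 by limma. That transcript was Rps14-001, at 79.0% ± 1.56 of its gene with BMP4 and 85.9% ± 2.30 without (SD, n = 3 each). Rps28-001 was at 45.5% ± 2.82 of its gene with BMP4 and 53.9% ± 1.94 without (adjusted p = 0.764), and its FPKM were 158, 171 and 219 with BMP4 and 265, 253 and 225 without, with no overlap. Rps9-002, Rpl29-001, Rps9-001 and Rps19-003 were the others with the smallest p, with adjusted p between 0.745 and 0.771. For a member the sum of its transcripts' FPKM was a median of 1.70 times the gene FPKM, and between 0.616 times (Rps16) and 6.64 times (Rpl35a), and when these sums replaced the gene values 1 member was again lower and 0 higher (background 21.9%, of which 11.2% lower and 10.7% higher).

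Genes that make ribosomal RNA and assemble the ribosome were read from the same fit, in lists that hold known factors of each step. Their calls are set beside the background of 27.9% of all tested genes called (14.3% lower, 13.6% higher), and no test compared the lists with the ribosomal protein genes or with all genes. Of 19 tested genes for small nucleolar particles and ribosomal RNA modification, 7 fell and 0 rose, with a median log2 fold change of -0.19. Naf1, which assembles the H/ACA particles, was at 17.6, 15.3 and 18.4 FPKM in BMP4 samples and 28.5, 29.5 and 28.8 FPKM in untreated samples, groups far from overlapping (log2 fold change -0.73, SE 0.0713, limma adjusted p = 0.000357). Dkc1, the pseudouridine synthase, fell by 0.45 on the log2 scale and Nop56, a core protein of the C/D particles, by 0.31. The 7 became 2 without BMP4 replicate 1, 2 without BMP4 replicate 2, 4 without untreated replicate 1 and 3 without untreated replicate 2, and the call of Nop56 was lost in 3 of those fits. In the same order, the count of all genes called in either direction, 3046 in the main fit, was 2036, 2060, 2763 and 2274.

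Of 39 tested 40S assembly factors 9 fell and 0 rose, with a median of -0.12, and of 54 tested 60S assembly factors 12 fell and 1, Surf6, rose, with a median of -0.13. Calls in either direction, 9 of 39 and 13 of 54, were not above the 27.9% of all tested genes. In the main fit the lower calls alone, 9 of 39 and 12 of 54, were above the 14.3% of all tested genes. That gap was not tested. Bysl, which acts late on the 40S precursor, was at 8.56, 8.50 and 9.51 FPKM with BMP4 and 12.1, 11.9 and 11.5 FPKM without, with no overlap (log2 fold change -0.38, limma adjusted p = 0.00391). Wdr43 and Pno1 fell by 0.40 and 0.26. Ftsj3, a methyltransferase of the 60S precursor, was at 12.5, 12.9 and 13.0 FPKM with BMP4 and 17.3, 17.0 and 16.6 FPKM without, again with no overlap (-0.38, adjusted p = 0.00118), and the helicase gene Ddx21 and Noc2l fell by 0.31 and 0.25. After scaling to the same sum 6 of the 40S factors fell and 1 rose. The 9 became 3 without BMP4 replicate 1 and 4 without BMP4 replicate 2, and the 12 became 4 without BMP4 replicate 1, 5 without BMP4 replicate 2 and 6 without untreated replicate 2. In those fits the count of all genes called in either direction, 3046 in the main fit, was 2036, 2060 and 2274. The share of all genes called lower was not taken for them, so the gap is read from the main fit only. Surf6 lost its call without BMP4 replicate 2, BMP4 replicate 3, untreated replicate 1 or untreated replicate 3.

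Of 16 tested entries for chaperones and importers that carry new ribosomal proteins, with Hspa14 listed under 2 IDs, 4 fell and 0 rose (14.3% and 13.6% of all tested genes), with a median of -0.10. The importer gene Ipo5 was at 41.4 ± 1.35 FPKM with BMP4 and 48.8 ± 1.61 FPKM without (SD, n = 3 each; log2 fold change -0.23, limma adjusted p = 0.0104). Pdcd2, the RPS2 chaperone gene, fell by 0.38, and Grwd1, a chaperone gene for RPL3, by 0.23, while Heatr3 made the fourth. The count was 0 without BMP4 replicate 1, 1 without BMP4 replicate 2, 2 without any of BMP4 replicate 3, untreated replicate 1 and untreated replicate 2, and 2 after scaling to the same sum, where Grwd1 was not past the threshold (adjusted p = 0.0651). Leaving out those libraries in that order gave 2036, 2060, 2523, 2763 and 2274 calls over all genes in either direction. The main fit gave 3046 and the scaling 3126.

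Of 18 genes for RNA polymerase I, which transcribes the large ribosomal RNA precursor, 3 fell and 1 rose, with a median of -0.05. Over all tested genes 14.3% fell and 13.6% rose. Polr2l, a subunit shared by all nuclear polymerases, was at 10.5 ± 0.465 FPKM with BMP4 and 14.2 ± 0.893 FPKM without (SD, n = 3 each; log2 fold change -0.40, limma adjusted p = 0.00365), Znrd1 fell by 0.30, and Taf1b, a promoter factor, was higher (0.27, adjusted p = 0.0154). The call of Taf1b was lost without BMP4 replicate 1 (0.0632) or untreated replicate 2 (0.0558).

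Translation factors whose transcripts are known to share the TOP start were the list nearest to the ribosomal proteins in kind. Of 22 tested, 1 rose and 2 fell (13.6% and 14.3% of all tested genes), with a median of -0.04 (0.0019 after scaling to the same sum). Eif3e, a subunit of initiation factor 3, was at 379, 374 and 406 FPKM in BMP4 samples and 343, 327 and 327 FPKM in untreated samples, with no overlap (log2 fold change 0.22, limma adjusted p = 0.0214). Npm1, the nucleolar chaperone, fell by 0.19 (adjusted p = 0.0255) and Pabpc4, a poly(A)-binding protein, by 0.35 (adjusted p = 0.00890). The call of Npm1 was lost without any 1 of 5 libraries, untreated replicate 1 or 2 or 3 or BMP4 replicate 1 or 2 (adjusted p between 0.0509 and 0.0989), and that of Eif3e without BMP4 replicate 1 or 3 or untreated replicate 2 or 3 (between 0.0544 and 0.0880).

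**Figure D5:**
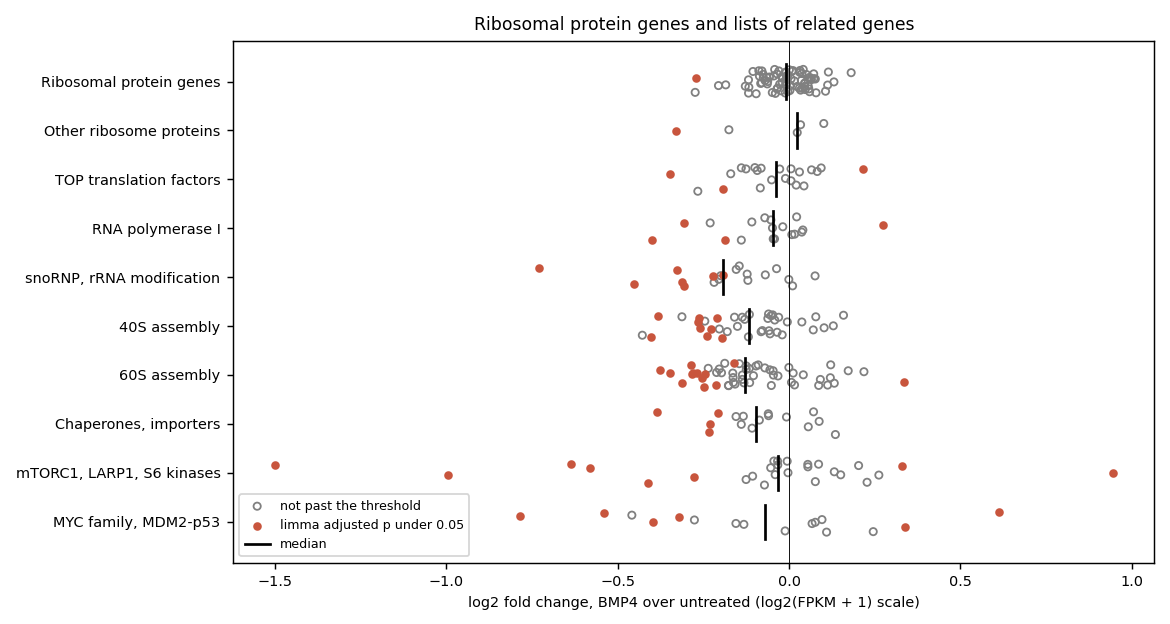
Log2 fold changes (BMP4 over untreated, log2(FPKM + 1) scale) of the ribosomal protein genes (top row) and of 9 lists of related genes; each point is a tested gene, filled where limma's adjusted p was under 0.05, and black bars are medians. The ribosomal protein genes cluster around 0 with 1 filled point, while filled points in the snoRNP and assembly rows lie left of 0 except for Surf6.

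The regulators of mTORC1, LARP1 and the S6 kinases held the widest range of log2 fold changes among these lists, from -1.50 to 0.94. The lowest was Rps6ka3, a kinase of the RSK family, at 7.22, 8.31 and 19.5 FPKM in BMP4 samples and 25.5, 34.5 and 36.6 FPKM in untreated samples, with BMP4 replicate 3 nearest to the untreated range. Deptor, an inhibitor of mTOR, was at 24.1, 23.1 and 23.0 FPKM in BMP4 samples and 11.37, 11.67 and 11.98 FPKM in untreated samples, with no overlap (log2 fold change 0.94, SE 0.0481, limma adjusted p = 1.62e-05). Ddit4, a stress-induced inhibitor of the same kinase, was at 24.1, 22.6 and 23.8 FPKM with BMP4 and 51.7, 47.2 and 44.9 FPKM without, also with no overlap (-0.99, adjusted p = 3.82e-05). Sesn2, a leucine sensor that holds mTORC1 down, fell by 0.64. Over the list 2 of 27 tested genes rose and 6 fell, near the 27.9% of all tested genes called in either direction, with a median of -0.03 (0.0059 after scaling to the same sum).

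Among 16 tested genes of the MYC family and of the MDM2 and p53 path through which free RPL5 and RPL11 act, 2 rose and 4 fell (13.6% and 14.3% of all tested genes), with a median of -0.07. Ccng1, a p53 target, was at 49.7, 49.0 and 55.4 FPKM with BMP4 and 87.6, 88.6 and 91.0 FPKM without, with no overlap (log2 fold change -0.78, limma adjusted p = 7.91e-05). Mdm2 fell by 0.40 in the gene table, although the sum of its listed transcripts gave 0.48, and Mxi1, a MYC antagonist, rose by 0.61.

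Of these ribosome proteins outside the name rule, Rpl36al was the one called. Fau, which encodes RPS30 fused to a ubiquitin-like protein, was at 306, 302 and 343 FPKM with BMP4 and 318, 296 and 272 FPKM without. Rack1, the 40S scaffold protein gene, was at 126, 130 and 137 FPKM with BMP4 and 142, 126 and 120 FPKM without. Both pairs of groups overlapped, with log2 fold changes of 0.10 for Fau and 0.02 for Rack1. Rps27rt, a copy of Rps27, was at 27.1, 24.6 and 40.6 FPKM with BMP4 and 35.2, 27.6 and 26.0 FPKM without, with the same libraries high as among the 81.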

How the data were processed

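Poly(A) RNA of 2H11 cells was measured in 3 BMP4-treated and 3 untreated samples. The authors deposited gene and transcript tables of FPKM, per the file headers. The submitters' processing notes name FastQC, cutadapt, HISAT2, StringTie and GRCm38; versions, annotation release and handling of reads that match several places were not given in the sources used here. A single empty line was dropped from each file. FPKM were taken as log2(FPKM + 1), features averaging 1 FPKM or more were kept, and limma 3.58.1 (R 4.3.3; lmFit, eBayes with trend) was fitted over the whole table, two-sided, adjusted by Benjamini-Hochberg and called below 0.05. The same fit was repeated after subtracting the member mean of each sample, on transcripts, and on transcript shares; sums were compared by exact permutation. The code was tested on simulated data. FPKM keep no depth, so no counting error could be given. Starts came from GENCODE M21 and promoters from RefSeq.

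The members and the gene lists were chosen with earlier results of these data known. Genes were named by rule: members past the threshold, the 3 most and 3 least abundant, chosen stalk, 5S, S6 and paralog genes, the 3 smallest adjusted p of each list, 6 transcripts by p in the share test and the 5 genes most like the member mean; genes called only under another scaling or relative to the member mean, and others given with values, were named after their values were seen. Same-numbered samples did not deviate together (correlations over all genes of -0.15, 0.05 and -0.22). With 3 samples a group this cannot show whether replicate numbers pair the samples. The main fit was unpaired, and a fit with a replicate block called 2040 genes where the main fit called 3046. Alternatives were other scalings, pseudocounts and filters, each library left out, a replicate block, and, added after seeing the data, summed transcripts and the fit without BMP4 replicate 3 and untreated replicate 1. A gene of the lists is not reported here.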

Additional observations from a re-analysis of the deposited data

How the results depend on the processing

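The member counts, 0 higher and 1 lower, were 3 higher after scaling to equal sums, 2 higher when those sums left out the members, and 1 higher and 3 lower without both BMP4 replicate 3 and untreated replicate 1. Leaving out 1 library gave 0 to 1 higher (Rpl13a without untreated replicate 1) and 1 to 3 lower (3 without BMP4 replicate 3), and other scalings, pseudocounts and filters gave 0 and 1. With the replicate block the lower count was again 1, and Rpl7l1 passed. The count relative to the member mean, 5, was 1 with the replicate block, 2 when centred on the member median, and 1 to 6 leaving out 1 library. The count of member transcripts, 1, was 2 under both equal-sum scalings, 2 with no filter, 0 with the replicate block, 0 without those 2 libraries and 0 to 2 leaving out 1. The share test gave 0 throughout. The count of all genes called in the gene fit, 3046, was 2036 to 2801 leaving out 1 library. It was 3126 under equal sums, 3167 when those sums left out the members and 2690 without those 2 libraries. Other scalings, pseudocounts and filters gave 2249 (mean of at least 5 FPKM) to 3317 (no filter). For the summed FPKM share of members, a log2 difference of 0.03, leaving out 1 library gave -0.0024 to 0.0595. For the 40S to 60S summed FPKM ratio, 0.0086 (0.0052 to 0.01 leaving out 1), the sign turned to -0.0100 without the 3 most abundant members and -0.0283 with geometric means. The cause of these shifts was not tested. Signs near 0 turned for single genes, with log2 fold changes under equal sums and equal sums without members of 0.0226 and 0.0249 (Rpl8), 0.0191 and 0.0213 (Rpl29), 0.0351 and 0.0372 (Rpl6l; 0.0048 with median ratios and 0.159 without both libraries), 0.0081 and 0.0104 (Rpl11), and 0.0319 and 0.0342 (Rps27). Summed transcripts turned Rps6 (-0.0387), Rpl7 (-0.172), Rpl3 (-0.0041; -0.0101 without both libraries) and Mdm2 (0.478), and the fit without both libraries turned Rps27rt (-0.0486). Leaving out 1 library ranged from -0.0627 to 0.0410 (Rpl8), -0.0701 to 0.103 (Rpl22l1), -0.116 to 0.0745 (Rpl29), -0.210 to 0.161 (Rpl6l), -0.0069 to 0.0877 (Rpl5), -0.100 to 0.0244 (Rpl11), -0.0360 to 0.0375 (Rps6), -0.0674 to 0.0374 (Rps27), -0.0415 to 0.0442 (Rpl3), -0.0268 to 0.0934 (Rack1) and -0.176 to 0.172 (Rps27rt). With the replicate block, the lower counts were 3 of 39 for 40S assembly, 5 of 54 for 60S assembly, 2 of 19 for snoRNP genes and 2 of 16 for chaperones, and Rpl36al did not pass (adjusted p = 0.0544). That block called 2040 genes over all in either direction, where the main fit called 3046, and no lower share of all genes was taken for it. Depth is unknown, so precision rests on the spread between 3 samples a group.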

Other observations

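Ribosomal protein genes have many intronless copies in the mouse genome. GENCODE M21 names 298 copies of 60 of the members with a -ps suffix, and 11 of them are in the deposited gene list. All genes in that list are typed as protein-coding, so 11 is not a count of the expressed copies. By gene FPKM Rps18-ps3 had a mean of 126 where Rps18 itself had 30.1 (4.18 times the parent). Rpl10-ps3 had 43.7 where Rpl10 had 94.9. Rps26-ps1 stood at 130 where Rps26 had 623, and Rps2-ps6 at 13.1 where Rps2 had 32.1. By the sum of listed transcripts Rps18, Rpl10 and Rps2 stood higher, at 102, 228 and 44.6 FPKM, and Rps26 was again at 623. The ratio of 4.18 thus holds for gene FPKM only. Reads of a copy and its parent cannot be told apart where their sequences match, so the levels of Rps18, Rps2 and Rpl10 are uncertain. All 11 copies were tested, and 0 passed (background 27.9%).

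The 5 other genes whose log2(FPKM + 1) followed the member mean most closely over the 6 libraries were Wdr45, Stub1, Telo2, Vegfb and Surf1, with r from 0.990 to 0.993. Stub1 was at 97.9, 95.3 and 105 FPKM in BMP4 samples and 109, 99.9 and 94.2 FPKM in untreated samples, with the same libraries high as among the members, and the groups overlapped.

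A transcript singled out after its values were seen was Rps24-201, at 39.3, 40.2 and 87.2 FPKM in BMP4 samples and 32.3, 32.4 and 35.4 FPKM in untreated samples. All BMP4 samples were above all untreated samples, BMP4 replicate 3 by far the most, and its share of the gene was 11.7% ± 4.82 with BMP4 and 7.26% ± 0.740 without (SD, n = 3 each; limma adjusted p = 0.801).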
